A study of Canis lupus familiaris with 17 samples.

Results

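Solute carriers are the membrane proteins that move amino acids, ions, sugars, organic anions, vitamins and metals across the cell surface and the membranes of organelles, and their gene symbols begin with Slc. The study published a list of transcripts that differed between scribKD and control cells and a list of transcripts that differed between scribRES and scribKD cells. A transcript was taken as a member when its gene name in the first list, or in the second list where the first did not hold it, began with Slc. This gave 38 of the 21571 transcripts measured, under 37 distinct names. Of these, 32 came from the first list (21 of that list only and 11 of both) and 6 from the second list only. The members were therefore chosen because they changed, so what follows describes the direction and the size of the changes and how far they were present in scribRES cells, and not how often carriers change.

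The cells were MDCK-II, a long-established epithelial line from dog kidney, carrying a tetracycline-inducible short hairpin RNA against scribble, a gene for a polarity protein of the lateral membrane. The study profiled such cells because those with the knock-down die when wild-type cells surround and compact them, and it sequenced a resistant derivative to ask which changes the losing cells do not share with it. The 3 groups used here were all derived from the scribKD line. They were control (scribKD −Tet, no tetracycline given), scribKD (+Tet, 10 µg/ml tetracycline) and scribRES (+Tet, 10 µg/ml), an isolate of scribKD cells that resists competition. The paper obtained scribRES by prolonged culture in tetracycline, followed by expansion without it. It is a lone isolate, so that what is particular to it, what that earlier culture left and what resistance brings cannot be told apart. No group was given tetracycline without the knock-down, so in differences from control the drug and the knock-down cannot be told apart. All were plated as pure cultures at 1300000 cells per dish and harvested 67 h later. There were 6 control, 6 scribKD and 4 scribRES libraries, in 3 labelled experiments with 2 libraries of each group. Replicates 1 and 2 belonged to experiment 1, 3 and 4 to experiment 2 and 5 and 6 to experiment 3, and scribRES libraries came from experiments 2 and 3 only. The experiments, 3 for control and scribKD and 2 for scribRES, match the biological replicates named for these groups, so the 2 libraries of an experiment are best read as repeats of 1 replicate. The SDs and p-values below are over libraries, and the p-values are therefore too small as a measure of the spread between experiments. Fitted on experiment means, limma called 0 of 28 members for scribRES against control and 0 of 27 for scribRES against scribKD, with 10 and 6 at an unadjusted p under 0.05.

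Levels are given in RPKM, reads per kilobase of transcript scaled to the reads of the library, so that they can be set side by side between genes. Libraries held from 12612664 to 54644201 reads on the transcripts. The targeted gene, Scrib, was at 28.9 ± 3.65 RPKM in control (SD, n = 6), 12.9 ± 2.69 in scribKD (n = 6) and 13.3 ± 1.23 in scribRES (n = 4), with no overlap between control and the groups given tetracycline. Of the kidney epithelial markers that have a named transcript, 7 of 15, occludin (Ocln) was at 33.5 RPKM in control and keratin 19 (Krt19) at 1469 RPKM, while the fibroblast marker Dcn was at 0 in every control library and at 0.056 RPKM at most in the others. Names were available for 9.2% of transcripts, so most carriers that did not change are not identified here. Among the transcripts that both lists hold, 34 bear different names in them. Of the members in both lists, 2 are affected: Slc10a6 is called Cd74 in the second list, and Slc1a1 is called Dsg3. The names of the 6 transcripts taken from the second list only are therefore less certain than the others.

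In a polarized kidney epithelium, carriers of the luminal membrane and carriers of the basolateral membrane work in series, and their sorting to the correct side is what makes transport across the cell layer directional. Others serve the cell itself: cation-chloride cotransporters set chloride and volume, amino acid exchangers trade internal for external amino acids, and organelle carriers feed the Golgi, lysosome and mitochondrion. Several of the members are well known from the renal proximal tubule.

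Among the 32 members of the first list, 9 had a higher mean log2 level in scribKD than in control and 23 a lower one. The difference had the same sign in all 3 experiments for 27 of the 32. The sizes were mostly modest: 7 members reached an absolute log2 difference of 1 or more, that is 2-fold, and these were Slc10a6, Slc12a4 and Slc7a6 on the higher side and Slc22a12, Slc7a8, Slc29a1 and Slc35c1 on the lower side. In the fit described below, 10 of the 22 members that could be tested were called, against 9.52% of all transcripts tested, and libraries did not overlap for 16 of the 38 members, against 7.59% of all transcripts above 0. Without the filter 16 of the 38 were called, against 7.25%, and 20 with the experiment as a block as well, against 13.0%. The members were chosen on this comparison, so no test of a member is given for it and nothing is read from those counts. In these bulk samples, fewer cells that make a transcript and less of it per cell cannot be told apart. Within experiments 2 and 3, the only ones with scribRES, the differences of scribKD and of scribRES from control were set side by side. They share their control libraries. For the 9 members higher in scribKD, the median log2 difference from control was 0.52 in scribKD and 0.51 in scribRES in experiment 2, and 1.03 and 0.52 in experiment 3. For the 23 that were lower, it was -0.51 in scribKD and -0.38 in scribRES in experiment 2, and -0.82 and -0.38 in experiment 3. The scribRES medians were thus alike in the 2 experiments, and the scribKD medians lay farther from 0 in experiment 3. Expressed as a share of the scribKD difference, that of scribRES had a median of 57.3% over the 32 members, with 104% in experiment 2 and 47.8% in experiment 3. The share is a description with no value for no change, because both differences use the same control libraries and the members were chosen on its denominator. For single members it is unstable where that denominator is small, as for Slc24a6 in experiment 2, with a scribKD difference of 0.02. The plot of differences from control shows the members one above another by role.

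**Figure D1:**
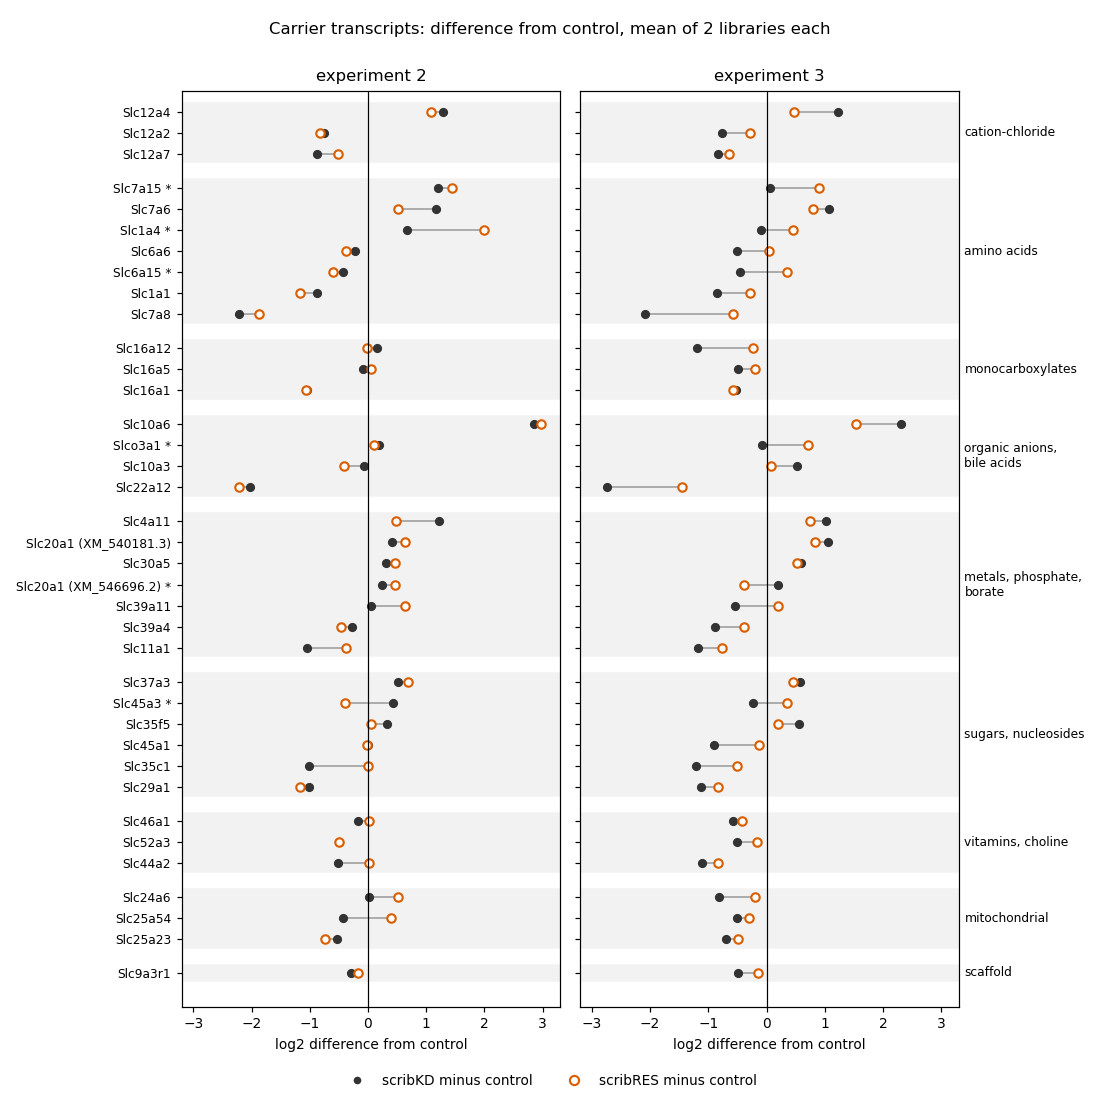
Log2 difference from control of 37 of the 38 carrier transcripts (vertical axis, grouped by what they carry) in experiment 2 (left) and experiment 3 (right), with filled points for scribKD minus control, open points for scribRES minus control, each from means of 2 libraries per group, and an asterisk for the 6 transcripts of the second list only. Over all 23 members lower in scribKD, 1 of them not plotted, the median scribKD differences were -0.51 and -0.82 in experiments 2 and 3 and the median scribRES differences -0.38 and -0.38.

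The comparison of scribRES with control asks which carriers still differed in the resistant isolate. It was tested with limma on log2(RPKM + 0.1) over all transcripts that passed a filter (every library of a group above 5 RPKM and within 2-fold of each other), with p-values adjusted by the Benjamini-Hochberg method. A call needed an adjusted p under 0.05 together with a log2 difference above 0.5 in either direction. The scribRES libraries played no part in choosing the members of the first list, but the control libraries did, so these tests are not independent of the choice. The members of the second list only were chosen on their scribRES levels and are given no test in this comparison either. Without the filter, 9 of the 32 members of the first list were called, against 5.18% of all transcripts, and 16 with the experiment as a block, against 14.5%. The median log2 difference of the 32 was -0.14, and that of all transcripts above 0 was 0.01. The libraries of the 2 groups did not overlap for 12 of the 32, against 11.8% of all. With the filter 25 could be tested and 9 were called, against 7.89%, but 7 of the 25 passed through scribRES only and nothing is read from that count. Of the 9 called members of the first list, Slc12a4, Slc37a3, Slc20a1 and Slc4a11 were higher than in control, and those that were lower included Slc1a1, Slc29a1, Slc16a1 and Slc12a7. Slc4a11 passed the filter through scribRES only and Slc29a1 through control only. In each case this is the group where the transcript is higher, so these filtered calls are not read.

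The comparison of scribRES with scribKD asks what the isolate did not share with the cells that lose. Mean log2 levels were higher in scribRES for 24 of the 32 members of the first list and lower for 8. The median log2 difference was -0.36 for the 9 members higher in scribKD than in control and 0.29 for the 23 that were lower, against 0.01 for all transcripts above 0. The scribKD libraries took part in choosing these members, so a shift against the direction of the choice is in part built in, and the tests that follow are not independent of it. Without the filter and with the experiment as a block, 7 of the 32 were called, against 7.67% of all. With the filter and no block 1 of 24 was called, Slc39a11, against 1.46%. With the filter and the block 5 of 24 were called, against 7.32%: Slc35c1, Slc24a6, Slc39a11 and Slc25a54, higher, and Slc4a11, lower. Slc35c1, Slc24a6 and Slc25a54 passed the filter through scribRES only, where they are high, so nothing is read from that count. Libraries did not overlap for 6 of the 32, Slc12a4, Slc11a1, Slc35c1, Slc35f5, Slc12a7 and Slc39a11, against 6.79% of all transcripts.

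The cation-chloride cotransporters Slc12a4, Slc12a7 and Slc12a2 differed in direction, with Slc12a4 higher and the others lower in scribKD than in control. Each kept its sign in every experiment, though the difference of Slc12a2 was small in experiment 1. These carriers move chloride together with potassium or sodium and so set cell volume and internal chloride. Slc12a4 (KCC1), which lets potassium and chloride out, ranged from 12.6 to 16.3 RPKM in control libraries, with a median of 14.2. In scribKD libraries it ranged from 31.4 to 35.3, with a median of 34.6. In scribRES libraries it was 27.6 and 27.3 RPKM (experiment 2) and 20.8 and 21.1 RPKM (experiment 3). The groups stood in 3 separate ranges, lowest in control, intermediate in scribRES and highest in scribKD. The log2 difference of scribKD from control was 1.23 (SE 0.08), and it was 1.19, 1.29 and 1.22 in the 3 experiments. Against control, scribRES cells were higher by 0.74 (SE 0.12, limma adjusted p = 0.0027). Against scribKD the difference was -0.49 (SE 0.10, limma adjusted p = 0.033), which does not reach the size set for a call.

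Slc12a7 (KCC4), another exporter of potassium and chloride, was at 30.3 ± 2.56 RPKM in control (SD, n = 6), 16.7 ± 1.34 in scribKD (n = 6) and 20.6 ± 0.786 in scribRES (n = 4), again in 3 separate ranges. Its log2 difference of scribKD from control was -0.86 (SE 0.08), with -0.85, -0.88 and -0.84 in the experiments, and that of scribRES from control was -0.55 (SE 0.08, limma adjusted p = 0.0022). Slc12a2 (NKCC1), which brings in sodium, potassium and chloride, was at 39.9 ± 8.86 in control and 26.4 ± 1.02 in scribKD, where all 6 libraries lay between 24.8 and 27.8. Its log2 difference of scribKD from control was -0.15, -0.76 and -0.77 in the 3 experiments. In experiment 1 the control libraries were at 30.6 and 28.5 RPKM and the scribKD libraries at 26.8 and 26.3. The scribRES libraries gave 25.9 and 26.6 RPKM in experiment 2, within the scribKD range, and 36.7 and 34.6 in experiment 3, above it. Its difference from control in scribRES was -0.35 (limma adjusted p = 0.19), or -0.56 with the experiment as a block (limma adjusted p = 0.0054).

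**Figure D2:**
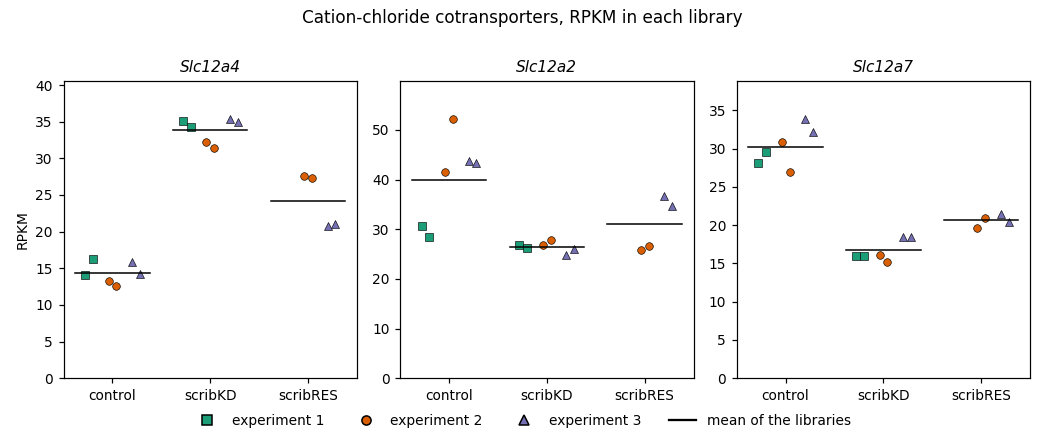
RPKM (vertical axis, from 0) of 3 cation-chloride cotransporters in each library of control, scribKD and scribRES cells, with squares, circles and triangles for experiments 1, 2 and 3 and a bar at the mean of the libraries. Slc12a4 had means of 14.4 in control, 33.9 in scribKD and 24.2 in scribRES, while Slc12a2 and Slc12a7 had lower means in scribKD than in control.

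The largest log2 difference between scribKD and control among the members was that of Slc10a6, named as a sodium-dependent carrier of sulphated steroids. Control libraries ranged from 14.6 to 48.4 RPKM, with a median of 18.8, and the highest were those of experiment 1. The scribKD libraries ranged from 79.5 to 358, with a median of 113, and experiment 1 was again the highest. Its scribRES values were 121 and 125 RPKM (experiment 2) and 49.1 and 60.4 RPKM (experiment 3). No scribKD or scribRES library fell within the control range. The level was 6.09-fold higher in scribKD than in control, with log2 differences of 2.65, 2.86 and 2.31 in the 3 experiments. Its libraries spanned over 2-fold within every group, so it did not pass the filter. Without the filter, the scribRES level was higher than control by a log2 of 1.77 (limma adjusted p = 0.031), and by 2.26 with the block (SE 0.26, limma adjusted p = 0.00079). Within experiment 2 scribRES was near scribKD (log2 difference 0.12), and within experiment 3 it was lower (-0.78).

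Slc22a12 (URAT1), the urate reabsorbing exchanger of the luminal membrane of the proximal tubule, went the other way. Control libraries ranged from 2.98 to 18.9 RPKM, with a median of 7.32, in clear order of the experiments, experiment 1 lowest and experiment 3 highest. The scribKD libraries ranged from 1.27 to 2.77, with a median of 1.72, below every control library. In the resistant isolate it was 1.52 and 1.48 RPKM in experiment 2, within the scribKD range, and 6.54 and 6.56 in experiment 3, above every scribKD library. The log2 differences of scribKD from control were -1.19, -2.03 and -2.74 in the 3 experiments. Without the filter and with the block, scribRES was lower than control by a log2 of -1.83 (SE 0.15, limma adjusted p = 0.0002), while without the block the difference was -1.21 (limma adjusted p = 0.29). The lowest library held 31 reads of this transcript, the fewest of any member, and the highest held 607.

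Slc10a3, a relative of the bile acid carriers without an assigned substrate, was lower in scribKD than in control in experiments 1 and 2 (log2 difference -0.16 and -0.07) and higher in experiment 3 (0.52). Its scribRES libraries lay between 24.7 and 26.0 RPKM, against 23.8 to 35.0 in control and 25.8 to 36.4 in scribKD. Slco3a1, an organic anion transporter of prostaglandins and thyroid hormone, came from the second list only. It ranged from 6.18 to 8.68 RPKM in control (median 7.08) and from 5.72 to 9.89 in scribKD (median 6.90). The 4 scribRES libraries were at 9.24 and 9.19 in experiment 2 and 11.5 and 11.8 in experiment 3, above every control library but within the scribKD range in experiment 2. Its mean log2 level in scribRES exceeded that in control by 0.51, a description, since its scribRES levels chose it.

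Of the 7 carriers of amino acids, 3 had higher and 4 lower mean levels in scribKD than in control. Slc7a8 (LAT2), a basolateral exchanger of neutral amino acids in the proximal tubule, was much lower. Control libraries ranged from 4.32 to 27.2 RPKM, with a median of 6.86, and those of experiment 3 were the highest at 27.2 and 21.2. The scribKD libraries ranged from 1.13 to 7.10, with a median of 1.79. The scribRES libraries gave 1.86 and 1.73 RPKM (experiment 2) and 15.7 and 16.6 RPKM (experiment 3). Over all libraries the groups overlapped, but within each experiment both scribKD libraries were below both control libraries, with log2 differences of -1.64, -2.22 and -2.08. In experiment 2 scribRES stayed at the scribKD level, with a log2 difference from control of -1.87, and in experiment 3 that difference was -0.57. Without the filter and with the block, scribRES was lower than control by -1.22 (SE 0.26, limma adjusted p = 0.011) and higher than scribKD by 0.93 (SE 0.27, limma adjusted p = 0.044), and without the block the adjusted p-values in limma were 0.59 and 0.46.

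Slc7a6 (y+LAT2), an exchanger of cationic for neutral amino acids, was higher in scribKD. It ranged from 7.61 to 17.2 RPKM in control (median 15.3) and from 16.3 to 37.3 in scribKD (median 28.5). Its scribRES values were 21.0 and 25.0 in experiment 2 and 13.1 and 14.2 in experiment 3, between control and scribKD in each. The level in experiment 3 was the lowest in every group, so the ranges overlapped, but the scribKD difference was 0.79, 1.17 and 1.08 in the 3 experiments. For scribRES against control it passed the filter through scribRES only, where it is higher, so the filtered test is not read. Without the filter, the scribRES level differed from control by a log2 of 0.47 (SE 0.29, limma adjusted p = 0.36). With the experiment as a block as well, the difference was 0.65 (SE 0.09, limma adjusted p = 0.002).

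Slc1a1 (EAAC1), the neuronal and epithelial carrier of glutamate and aspartate, was abundant. It was at 99.4 ± 15.2 RPKM in control, 59.9 ± 5.36 in scribKD and 65.6 ± 15.3 in scribRES. The scribRES libraries were at 52.9 and 51.9 in experiment 2 and at 76.3 and 81.2 in experiment 3. Against control they were lower by a log2 of -0.62 (SE 0.16, limma adjusted p = 0.025), a call that was lost without replicate 3 (-0.49, limma adjusted p = 0.15) or replicate 4 (-0.45, limma adjusted p = 0.14). Slc6a6, the taurine carrier, was at 68.9 ± 8.19 in control, 55.8 ± 5.29 in scribKD and 65.9 ± 13.1 in scribRES, and the groups overlapped.

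The other 3 amino acid carriers came from the second list only, so their differences of scribRES from scribKD and from control are descriptions. Slc1a4 (ASCT1), which exchanges serine, alanine and cysteine, ranged from 8.20 to 28.0 RPKM in control (median 24.0) and from 13.3 to 27.3 in scribKD (median 24.0). In the resistant isolate it was 34.3, 36.7, 36.9 and 36.1, above every other library and nearly equal in the 2 experiments. The low values of control and scribKD were those of experiment 2, at 8.20 and 9.55 and at 15.0 and 13.3. The mean log2 level in scribRES exceeded that in control by 0.99. Slc7a15, a name used in the mouse for an exchanger of aromatic amino acids, ranged from 18.6 to 40.3 in control (median 29.5) and from 30.0 to 54.2 in scribKD (median 45.5). The 4 scribRES libraries were at 55.3, 52.7, 52.2 and 59.0 RPKM, all above control, with a mean log2 difference of 0.99. In experiment 3 the scribKD libraries, at 30.0 and 31.3, stood at the control level of 30.6 and 28.3, while in experiment 2 they were at 47.7 and 43.3 against 20.9 and 18.6. Slc6a15 (B0AT2), a carrier of branched-chain amino acids and proline, ranged from 2.94 to 5.72 in control (median 4.97) and from 1.64 to 4.03 in scribKD (median 3.67). The scribRES libraries gave 3.09 and 3.39 in experiment 2, below control of that experiment, and 7.0 and 7.17 in experiment 3, above every other library.

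**Figure D3:**
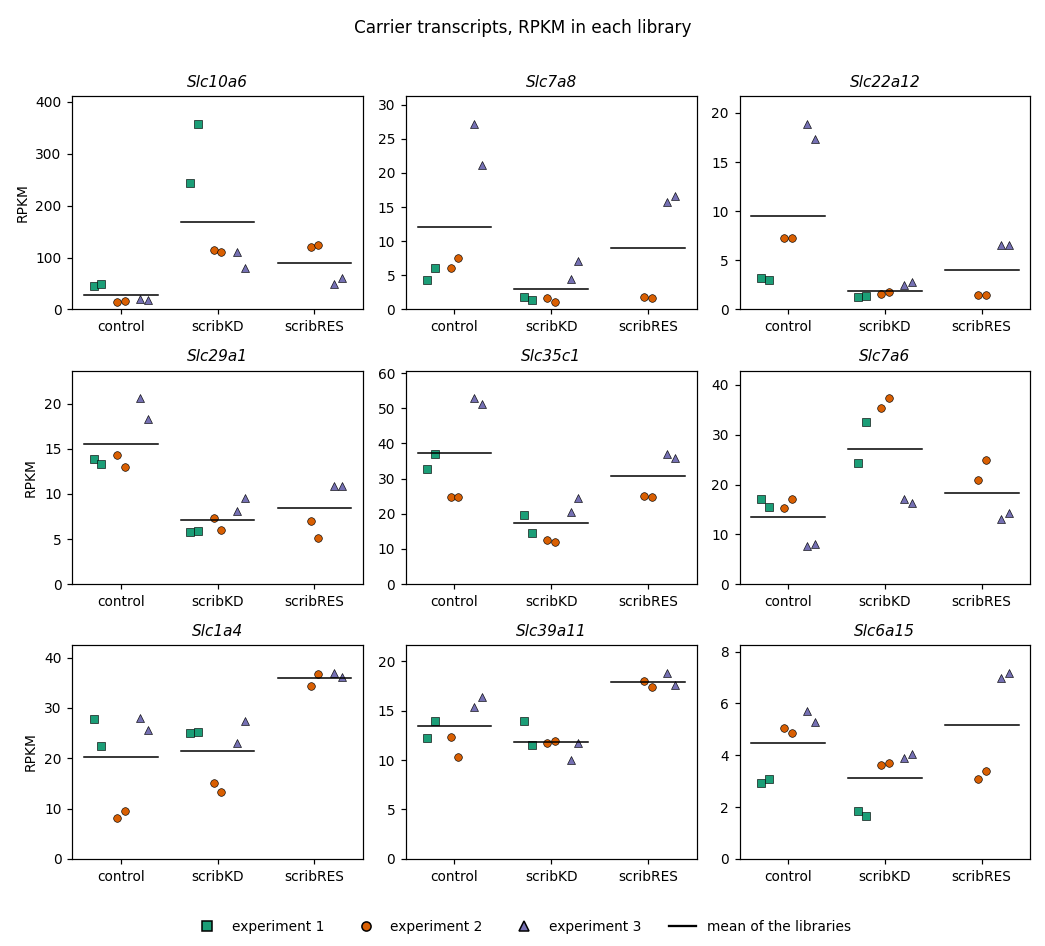
RPKM (vertical axis, from 0) of 9 carrier transcripts in each library of control, scribKD and scribRES cells, with squares, circles and triangles for experiments 1, 2 and 3 and a bar at the mean of the libraries. Slc10a6 was above the control range in every scribKD and scribRES library, Slc1a4 and Slc39a11 were highest in the 4 scribRES libraries, and Slc7a8, Slc22a12 and Slc6a15 had scribRES values near scribKD in experiment 2 (1.86, 1.52 and 3.09 in replicate 3) and well above it in experiment 3 (15.7, 6.54 and 7.0 in replicate 5).

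All 3 carriers of monocarboxylates had lower means in scribKD than in control. Slc16a1 (MCT1), which carries lactate and pyruvate with a proton, was at 55.0 ± 13.9 RPKM in control, 30.8 ± 3.02 in scribKD and 31.0 ± 3.69 in scribRES. The scribRES libraries, at 33.0, 35.1, 27.2 and 28.5, overlapped the scribKD range of 27.2 to 35.5 and were below every control library. The log2 difference between scribRES and scribKD was 0.01 (SE 0.10), and that between scribRES and control was -0.80 (SE 0.17, limma adjusted p = 0.013). Without replicate 3 the latter was -0.77 (limma adjusted p = 0.067). Slc16a5 (MCT6), a carrier of some drugs, was at 35.7 ± 10.2 in control, 28.8 ± 4.65 in scribKD and 34.2 ± 9.06 in scribRES, with overlap. Slc16a12, the creatine carrier, was at 31.7 ± 12.3 in control, 24.9 ± 3.93 in scribKD and 31.2 ± 9.60 in scribRES. Its scribKD difference was 0.22 and 0.15 in experiments 1 and 2 and -1.20 in experiment 3, where control libraries were at 47.8 and 45.7 and scribKD libraries at 21.3 and 19.4.

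Carriers of metals, phosphate and borate moved in both directions. Slc20a1 (PiT1), the sodium-phosphate cotransporter of most cells, had the highest level of all members, and this refers to the transcript XM_540181.3. It was at 423 ± 97.1 RPKM in control, 755 ± 221 in scribKD and 614 ± 60.2 in scribRES. The highest control library was at 547 RPKM and the lowest of the others at 553, so control did not overlap with either group. Against control, scribRES was higher by a log2 of 0.56 (SE 0.17, limma adjusted p = 0.042), or 0.74 with the block (SE 0.07, limma adjusted p = 9.6e-05). The call without the block was lost on leaving out replicate 3, 4, 5 or 6, with adjusted p from 0.086 to 0.19. A second transcript that the second list also calls Slc20a1 (XM_546696.2) was at 2.02 to 5.22 RPKM in control (median 4.11) and 2.36 to 5.81 in scribKD (median 5.03). Its scribRES values were 3.32, 2.91, 3.67 and 3.75, within both of those ranges.

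Slc4a11, a relative of the bicarbonate carriers linked to borate and proton transport, ranged from 4.01 to 5.16 RPKM in control, with a median of 4.91. In scribKD it ranged from 6.53 to 10.7, with a median of 9.98. In the resistant isolate it was 5.60 and 6.27 in experiment 2 and 8.92 and 8.52 in experiment 3, all above control. The scribKD difference was 0.60, 1.22 and 1.03 in the 3 experiments. It passed the filter for scribRES against control through scribRES only, where it is higher, so that filtered call is not read. Without the filter, scribRES was higher than control by a log2 of 0.59 (SE 0.16, limma adjusted p = 0.047). With the block as well, the difference was 0.61 (SE 0.10, limma adjusted p = 0.0032). The filtered call was lost without replicate 4, 5 or 6 (limma adjusted p from 0.076 to 0.088). Against scribKD, scribRES differed by -0.36 (SE 0.17, limma adjusted p = 0.25), or by -0.51 with the block (SE 0.12, limma adjusted p = 0.012).

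Slc39a11 (ZIP11), a zinc carrier, was the member called between scribRES and scribKD without a block. It ranged from 10.3 to 16.4 RPKM in control (median 13.2) and from 10.00 to 14.0 in scribKD (median 11.7). The 4 scribRES libraries were at 18.0, 17.4, 18.8 and 17.6, above every other library. It was higher in scribRES than in scribKD by a log2 of 0.61 (SE 0.09, limma adjusted p = 0.0091), and than in control by 0.43 (SE 0.13, limma adjusted p = 0.041), under the size for a call. Without replicate 3, 4, 5 or 6 the difference from scribKD stayed between 0.54 and 0.63, with adjusted p from 0.071 to 0.084. The scribKD difference from control that put it in the list was small, -0.04, 0.06 and -0.55 in the 3 experiments.

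Slc11a1 (NRAMP1), an exporter of iron and manganese from phagosomes, was at 5.70 ± 1.57 RPKM in control, 2.86 ± 0.503 in scribKD and 4.11 ± 0.499 in scribRES. Its scribRES libraries, from 3.65 to 4.77, were above every scribKD library, and without the filter and with the block the log2 difference was 0.54 (SE 0.11, limma adjusted p = 0.015). In the same fit they were lower than control by -0.56 (SE 0.12, limma adjusted p = 0.011), and without the block that difference was -0.43 (limma adjusted p = 0.22). Slc39a4 (ZIP4), a zinc importer of the luminal membrane, was at 32.4 ± 18.1 in control, 20.6 ± 8.16 in scribKD and 29.6 ± 15.1 in scribRES, and within each group it was highest in experiment 3. Slc30a5 (ZnT5), which moves zinc into the Golgi, was at 34.3 ± 4.03 in control, 45.1 ± 3.05 in scribKD and 45.7 ± 4.16 in scribRES. Every scribKD and scribRES library of Slc30a5 was above every control library, and the scribRES difference from control was 0.42 (SE 0.11, limma adjusted p = 0.024), below the size for a call.

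Among the carriers of nucleosides and sugars, Slc29a1 (ENT1), the equilibrative nucleoside transporter that takes up adenosine and other nucleosides, ranged from 13.0 to 20.6 RPKM in control (median 14.1). In scribKD it ranged from 5.79 to 9.60, with a median of 6.70. The scribRES libraries gave 6.98 and 5.11 in experiment 2 and 10.9 and 10.9 in experiment 3, below every control library. The scribKD difference from control was -1.20, -1.02 and -1.13 in the 3 experiments. It passed the filter for scribRES against control through control only, where it is higher, so that filtered call is not read. Without the filter, scribRES was lower than control by a log2 of -0.91 (SE 0.23, limma adjusted p = 0.038). With the block as well, the difference was -1.0 (SE 0.12, limma adjusted p = 0.00085). The filtered call without the block was lost without replicate 3 (-0.87, limma adjusted p = 0.11) or replicate 4 (-0.75, limma adjusted p = 0.073).

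Slc35c1, the carrier that brings GDP-fucose into the Golgi for fucosylation, was nearer to control in scribRES than in scribKD. It ranged from 24.8 to 52.8 RPKM in control (median 34.9) and from 11.9 to 24.4 in scribKD (median 17.1). Its scribRES values were 25.1 and 24.8 in experiment 2, close to the 24.8 and 24.9 of control there, and 37.0 and 35.9 in experiment 3, between scribKD at 20.6 and 24.4 and control at 52.8 and 51.3. All scribRES libraries were above all scribKD libraries. It passed the filter through scribRES only, where it is higher, so the filtered test is not read. Without the filter, the difference of scribRES from scribKD was 0.85 (SE 0.22, limma adjusted p = 0.092). With the experiment as a block as well, the difference was 0.86 (SE 0.11, limma adjusted p = 0.0028).

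Slc37a3, of a family of sugar-phosphate carriers of the endoplasmic reticulum, was at 19.3 ± 0.923 RPKM in control, 28.4 ± 2.45 in scribKD and 29.1 ± 2.95 in scribRES, with scribRES higher than control by a log2 of 0.59 (SE 0.08, limma adjusted p = 0.0016) and a difference from scribKD of 0.04 (SE 0.09). Slc35f5, a nucleotide-sugar carrier family member without an assigned substrate, was at 31.6 ± 2.61 in control and 42.5 ± 2.74 in scribKD and at 33.0 ± 1.45 in scribRES. All its scribRES libraries were below all scribKD libraries, with a difference of -0.36 (SE 0.07, limma adjusted p = 0.033), below the size for a call. Slc45a1, a proton-coupled glucose carrier, was at 5.36 ± 2.48, 4.05 ± 0.578 and 5.59 ± 2.57 RPKM in control, scribKD and scribRES, and its groups overlapped. Slc45a3 (prostein), of the second list only, ranged from 4.68 to 6.34 in control (median 4.93) and from 3.80 to 8.43 in scribKD (median 4.12). In the resistant isolate it was 4.63, 4.59, 6.45 and 5.85. In experiment 2 its scribKD libraries, at 8.43 and 7.91, were the highest of all, and in the other experiments scribKD libraries were at 4.27 or below.

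The 3 carriers of vitamins and choline had lower means in scribKD and overlapping groups. Slc44a2, a choline carrier, was at 25.4 ± 13.0 RPKM in control, 15.5 ± 4.32 in scribKD and 19.2 ± 4.94 in scribRES. Slc46a1, the proton-coupled folate carrier, was at 14.4 ± 2.92, 11.4 ± 1.12 and 12.7 ± 0.877, and Slc52a3, a riboflavin carrier, at 6.41 ± 0.801, 4.63 ± 0.603 and 4.86 ± 0.47.

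The mitochondrial carriers also had lower means in scribKD. Slc24a6 (NCLX), which exchanges sodium for calcium at the inner mitochondrial membrane, ranged from 4.73 to 11.7 RPKM in control (median 6.93) and from 4.79 to 7.22 in scribKD (median 5.37). The 4 scribRES libraries were at 7.03, 7.43, 9.51 and 9.95. As it passed the filter through scribRES only, its unfiltered values are given. The difference of scribRES from scribKD was 0.58 (SE 0.15, limma adjusted p = 0.086), or 0.57 with the block (SE 0.10, limma adjusted p = 0.0093). Slc25a54, a name used in the mouse for a relative of the ATP-Mg/phosphate carriers, ranged from 4.35 to 8.43 in control (median 7.88) and from 3.26 to 6.93 in scribKD (median 5.55). The scribRES libraries gave 5.78, 6.58, 6.51 and 6.24. It too passed the filter through scribRES only. Without the filter, the difference of scribRES from scribKD was 0.31 (SE 0.21, limma adjusted p = 0.5), or 0.51 with the block (SE 0.14, limma adjusted p = 0.032). Slc25a23, a calcium-regulated ATP-Mg/phosphate carrier, was at 5.94 ± 1.30, 3.84 ± 0.759 and 4.36 ± 1.03 in control, scribKD and scribRES. Without the filter its scribRES difference from control was -0.44 (limma adjusted p = 0.22), or -0.61 with the block (SE 0.10, limma adjusted p = 0.004). Slc9a3r1 (NHERF1) is a scaffold that holds carriers at the luminal membrane and no carrier itself. It was at 230 ± 18.2 in control, 177 ± 14.4 in scribKD, below every control library, and 197 ± 14.3 in scribRES, where it differed from control by -0.22 (SE 0.08, limma adjusted p = 0.1).

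Several carriers thus had a scribRES level that differed between the experiments. The difference between scribRES and scribKD in experiment 3 minus that in experiment 2 was fitted in limma over all transcripts above 0. It was chosen after seeing the data and rests on 2 libraries per group and experiment. Those 2 are best read as repeats of 1 replicate. The p-values below therefore measure only the spread between such repeats, and the difference between experiments has no replication of its own. Among the 26 members of the first list above 5 RPKM in every library of a group, 8 were called, against 18.1% of such transcripts. Over all transcripts above 0, 10 of the 32 members of the first list were called, against 13.6%. Of the 10, 7 had a more positive difference in experiment 3, against 7.45% of all, and 3 a more negative one, against 6.19%. Many transcripts above 0 have low levels, so nothing is read from these counts. The more positive ones included Slc22a12, with a log2 difference between scribRES and scribKD of -0.19 in experiment 2 and 1.29 in experiment 3 (limma adjusted p of the contrast between experiments = 0.0027). Slc16a12 went from -0.16 to 0.95 (limma adjusted p = 0.00077), Slc1a1 from -0.29 to 0.56 (limma adjusted p = 0.00048) and Slc12a2 from -0.06 to 0.48 (limma adjusted p = 0.003). Slc6a6 went from -0.16 to 0.56 (limma adjusted p = 0.0054). The more negative ones were Slc12a4, from -0.21 to -0.74 (limma adjusted p = 0.0013), Slc10a6, from 0.12 to -0.78 (limma adjusted p = 0.027), and Slc25a54, from 0.82 to 0.20 (limma adjusted p = 0.033). For Slc7a8, which went from 0.35 to 1.51, the adjusted p was 0.062 in limma. For the 6 members of the second list only, which were chosen on this comparison, the values are a description: Slc6a15 went from -0.18 to 0.82, Slco3a1 from -0.07 to 0.78, Slc45a3 from -0.81 to 0.60, Slc7a15 from 0.25 to 0.85, Slc1a4 from 1.32 to 0.54 and Slc20a1 (XM_546696.2) from 0.23 to -0.57.

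**Figure D4:**
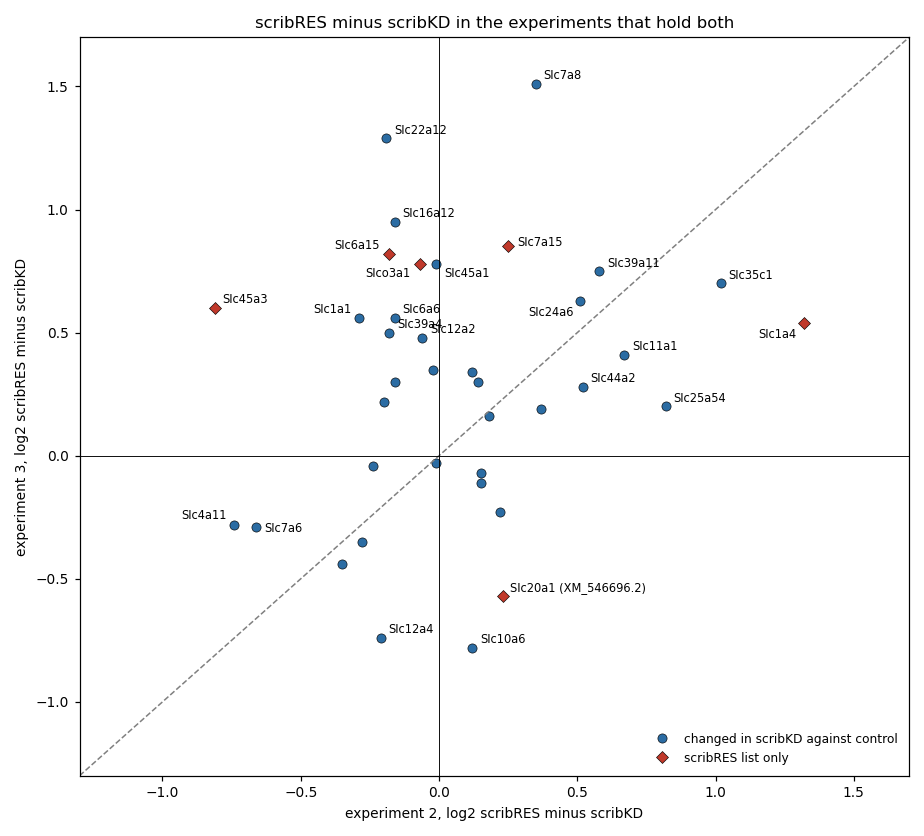
Log2 difference between scribRES and scribKD cells in experiment 2 (horizontal axis) and in experiment 3 (vertical axis) for each of the 38 carrier transcripts, each from means of 2 libraries per group, with blue circles for the 32 members of the first list, red diamonds for the 6 of the second list only, and a dashed line where the experiments are equal. Slc7a8 (0.35 and 1.51), Slc22a12 (-0.19 and 1.29) and Slc16a12 (-0.16 and 0.95) lay far above the line, and Slc10a6 (0.12 and -0.78) lay far below it.

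The experiments also differed within the groups. From experiment 2 to experiment 3, 10 of the 38 members were at least 2-fold higher in control cells, against 4.89% of transcripts above 5 RPKM, and 1, Slc7a6, was at least 2-fold lower, against 3.11%. The 10 were Slc7a8 (log2 1.80), Slc1a4 (1.59), Slc44a2 (1.48), Slc22a12 (1.29), Slc45a1 (1.28), Slc39a4 (1.27), Slc24a6 (1.13), the Slc20a1 transcript XM_546696.2 (1.09), Slc35c1 (1.06) and Slc16a12 (1.02). In scribKD cells 2 members, Slc7a8 (1.94) and the Slc20a1 transcript XM_546696.2 (1.05), were at least 2-fold higher in experiment 3, against 2.24% of transcripts, and 2, Slc7a6 (-1.12) and Slc45a3 (-1.0), at least 2-fold lower, against 1.76%. In scribRES cells 5 were higher, against 1.64%: Slc7a8 (3.1), Slc22a12 (2.06), Slc39a4 (1.36), Slc45a1 (1.16) and Slc6a15 (1.11). Slc10a6 (-1.17) was at least 2-fold lower there, against 0.989%. All these shares are over transcripts above 5 RPKM, while the counts are over all 38 members. Some of those named had lower means, such as Slc7a8 in scribKD (2.93), Slc22a12 in scribRES (4.03) and XM_546696.2 in control (3.75). The counts and shares are therefore not a like-for-like comparison. What differed between the experiments beyond their number is not given by the labels, and its part in these values was not tested.

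Genes known to work with these carriers were looked up in a list of 24, of which 5 have a named transcript. Stk39 (SPAK), a kinase that phosphorylates cation-chloride cotransporters, was at 5.44 ± 1.31 RPKM in control, 7.92 ± 1.27 in scribKD and 7.13 ± 0.823 in scribRES. It comes from the list of scribKD changes, so that difference carries no test, and scribRES differed from control by 0.41 (limma adjusted p = 0.13), or 0.61 with the block (limma adjusted p = 0.00034). Its lowest control library was at 4.10 RPKM, so it passed that filter through scribRES only, where it is higher. Nothing is read from these p-values. Sgk1, a kinase that raises the surface amount of many carriers and channels, was at 45.2 ± 12.8 in control, 38.5 ± 4.70 in scribKD and 23.8 ± 0.703 in scribRES, where every library was below every control library. It comes from the list of differences between scribRES and scribKD, so its scribRES level is a description. Fxyd5, a small subunit that associates with the sodium pump, was at 57.9 ± 7.16, 69.2 ± 4.83 and 62.8 ± 2.66. Fxyd2, the sodium pump's gamma subunit in kidney, ranged from 5.15 to 115 in control, and Pdzk1ip1 (MAP17), a partner of a luminal scaffold and of glucose carriers, from 219 to 560, so both were left untested by the filter. The renal transcription factor Pax8, which drives tubular genes, had a lower level in scribKD along with the carriers that were lower. It was at 47.7 ± 5.0 RPKM in control, 28.8 ± 3.62 in scribKD and 33.9 ± 11.9 in scribRES. Its part in the carrier levels was not tested.

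Of 22 genes of the amino acid response, by which Atf4 raises amino acid carriers and enzymes when amino acids are short, 5 have a named transcript. Of these 5, 4 passed the filter in the comparison of scribRES with control and 1 was called, Vldlr, against 7.89% of all, and with the block all 4 were called higher, against 8.77% of all. Nothing is read from these counts. Vldlr, Ddit4 and Atf3 come from the list of differences between scribRES and scribKD and so were chosen on their scribRES levels, and Ddit4, Atf3 and Psph passed the filter through scribRES only. Ddit4 ranged from 35.2 to 275 RPKM in control, from 48.0 to 267 in scribKD and from 241 to 373 in scribRES. Vldlr ranged from 156 to 264 in control, from 159 to 240 in scribKD and from 297 to 326 in scribRES. Psph, an enzyme of serine synthesis, was at 43.8 ± 19.1, 66.2 ± 23.2 and 60.6 ± 6.91 in control, scribKD and scribRES, and its ranges overlapped. Whether these genes and the carriers Slc1a4 and Slc7a15 move together was not tested.

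The same lists hold 15 transcripts of other membrane transport proteins (ion channels, pumps and ABC transporters). All were chosen on the comparison of scribKD with control, where 5 of the 6 that passed the filter were called, against 9.52% of all. Of the 8 that passed for scribRES against control, 1 was called (Trpv4, lower), against 7.89%, and with the block 5 were called, against 14.7%. These were Trpm3, Kcnk1 and Clic3, higher, and Trpv4 and Atp2c2, lower. Trpm3 and Clic3 passed the filter through scribRES only, where they are higher. The control libraries took part in choosing all 15, so nothing is read from these counts. The carriers that the lists did not hold but a RefSeq gene table names were 6: Slc39a7, Slc2a1, Slc2a4, Slc2a8, Slc2a9 and Slc17a6. Slc2a1 (GLUT1), the common glucose uniporter, was at 635 ± 149 RPKM in control, 874 ± 312 in scribKD and 979 ± 123 in scribRES. It was higher in scribRES than in control by 0.65 (limma adjusted p = 0.034), or 0.80 with the block (limma adjusted p = 0.0045). Its difference between scribKD and control was 0.41 (limma adjusted p = 0.27, or 0.00035 with the block), below the size for a call. Slc39a7, the zinc exporter of the endoplasmic reticulum, was at 87.9 ± 7.69 in control and 105 ± 8.82 in scribRES. The log2 difference was 0.25 (limma adjusted p = 0.077), or 0.21 with the block (limma adjusted p = 0.011), below the size for a call. Slc2a8, an internal glucose carrier, was at 12.6 ± 2.86, 13.9 ± 3.89 and 14.4 ± 3.06 in control, scribKD and scribRES. Slc2a4 was at 3.24 RPKM or below in every control library, Slc2a9 at 0.129 or below, and Slc17a6 was listed at 0 in every library.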

How the data were processed

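RNA from 3 groups of MDCK-II cells was sequenced in 17 runs of 16 libraries, grouped by the sample labels. The authors trimmed and filtered reads by quality, mapped them to the dog genome CanFam3.1 with a junction file of 21571 transcripts, counted reads overlapping these and deposited RPKM, 1 table per run; the submitters' processing notes name cutadapt 1.0 and TopHat2 2.0.6. How reads matching several transcripts were counted is not given in the sources used here, so near-identical relatives may share reads. The 2 runs of control replicate 2 were averaged and counted once.

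RPKM values were whole multiples of what 1 read is worth; this gave read numbers for 18873 transcripts (2698 were 0 throughout) with 100.0% of values within 0.01 of a whole read. Members held 31 to 63738 reads per library, so counting error is small beside the spread between libraries for all but the lowest of them.

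Each pair of groups was fitted with limma 3.58.1 under R 4.3.3, two-sided, on log2(RPKM + 0.1) with an intensity trend and no block, using Benjamini-Hochberg adjustment over all transcripts tested (9691 for scribKD over control, 10342 for scribRES over scribKD, 10324 for scribRES over control). The fit was tested on simulated data. Log2 differences understate the change of transcripts near the pseudocount of 0.1. Only the identifiers and names of the study's 2 lists were used; their fold changes and p-values were not. The members, their role groups and the gene lists were chosen with earlier results of these data known. Every member is named but 1, which is not reported here, and library values are given for members with an absolute log2 difference of 1 or more between scribKD and control, for those called between scribRES and scribKD with or without the experiment block, and for those of the second list only.

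Replicate numbers pair the libraries: deviations from the group means correlated in every same-numbered pair, with r from 0.36 to 0.77 for scribKD and control, 0.15 to 0.61 for scribRES and scribKD and 0.12 to 0.63 for scribRES and control, and at least as much on average between other numbers of the same experiment (mean r 0.73, 0.39 and 0.41, against 0.65, 0.38 and 0.41), so that the experiment is the unit that pairs them. Blocked values are given where they changed a call of a named member of the first list. Other alternatives were pseudocounts, filters, median-ratio scaling, group means per experiment, and leaving out each replicate number. Fits on recovered reads (voom), the block without the filter or in experiments 2 and 3 only, and the contrast between experiments were chosen after seeing the data. Other steps used Python 3.11.15, numpy 2.4.6, pandas 2.3.3 and matplotlib 3.10.9. Sequences and coordinates were not used here.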

Additional observations from a re-analysis of the deposited data

Results flagged for a closer look

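In 114 sets of libraries, 38 members in 3 groups each, Dixon's test for a library apart from the rest of its group picked out 1. Slc37a3 was at 17.5 RPKM in control replicate 1, below the other control libraries, the lowest of which was at 19.1. Chance alone would pick out about 1 in 20 such sets. The difference is small beside that between control and scribKD, where the lowest library was at 25.0 RPKM.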

How the results depend on the processing

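Under a replicate block by experiment, 10 members were called for scribKD over control, against 10.5% of all transcripts tested (10 and 9.52% without it). For scribRES over scribKD 7 were called, against 7.32% (1 and 1.46% without it). For scribRES over control 13 were called, against 14.7% (11 and 7.89% without it). Of the 7 and of the 13, 2 each came from the second list only, which was chosen on scribRES levels. With the replicate number as the block 10, 4 and 13 were called, against 10.5%, 3.91% and 10.9%. The counts in this section pool both lists, and nothing is read from them. The median share kept was 57.3%, and 104% in experiment 2 alone. For scribKD over control, on which the members were chosen, 16 were called without the filter (7.25% of all transcripts were), 20 without it and with the block (13.0% of all), and 4 from experiment means. For scribRES over scribKD, 2 were called with pseudocounts of 0.5 or 1, with median-ratio scaling or in experiments 2 and 3 only, and 7 in these with the block. By voom on recovered reads 2 were called, against 1.32% of all. Without the filter and with the block 9 were called, against 7.67% of all, and from experiment means 0. For scribRES over control, 18 were called without the filter and with the block, against 14.5% of all, and 0 from experiment means. The experiment means leave 2 or 3 values per group, and limma then called 0 of all transcripts tested for scribRES over scribKD and for scribRES over control, with 6 and 10 members at an unadjusted p under 0.05. Leaving out each replicate number in turn gave 9 to 11, 0 to 1 and 5 to 10 members for the 3 comparisons by limma. The counts of this section that stand without a share of all transcripts, these among them, were not set against the rest of the transcripts. They show only how the number of called members moved with the setting. Of 1704 values for single members under an alternative, none changed sign when called, 59 were no longer called and 47 became called. Median-ratio scaling moved no library by more than 0.041 on the log2 scale. Low read numbers limit Slc22a12 and Slc7a8 in particular.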
